A study of Drosophila melanogaster with 2 samples.

Results

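Translation factor and aminoacyl-tRNA synthetase genes of Drosophila melanogaster were examined for binding of the zinc-finger protein CG30431. The members were chosen by gene symbol, as symbols that begin with eIF or eEF or that name a tRNA synthetase by its amino acid. Earlier results of these data were known when the choice was made. The symbol rule gave 85 of the 13968 protein-coding genes on the main chromosomes. They were 44 initiation factors, 8 elongation factors, 18 cytosolic synthetases and 15 mitochondrial synthetases. A synthetase was classed as mitochondrial where its symbol ends in -m and as cytosolic otherwise. Whether a gene without -m also supplies the mitochondrial enzyme was not examined. Binding was mapped by chromatin immunoprecipitation and sequencing (ChIP-seq) in whole embryos of 0 to 24 h, with both sexes pooled. The embryos carried a transgene for CG30431 with GFP at its C-terminus, and chromatin was precipitated through the GFP. The series has 1 group of 2 biological replicates, which are separate biosamples of the same transgenic line. All tissues and ages of the embryo were mixed, so binding in fewer cells and weaker binding per cell cannot be told apart. The deposited lists carry no read counts, and the depth of each replicate is unknown.

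Protein synthesis begins when initiation factors bring the initiator tRNA, the small ribosomal subunit and the mRNA together and the large subunit joins. Elongation factors then deliver charged tRNAs to the ribosome and move it along the message. Aminoacyl-tRNA synthetases attach each amino acid to its tRNA, and the fly has separate nuclear genes for many of the enzymes that work in mitochondria. Many of these genes are active in nearly all growing cells, but the members also include additional gene copies such as eIF3f2 and eIF4E3. Expression of the members was not examined here.

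The 6 stretches of promoter sequence below show what lay under the summits, the positions of highest signal within a peak. They are the strongest promoter peak of each class that has any, then the next strongest, among the chromosome arms printed here. The summit of eIF5B was passed over because it lies in an exon. Each stretch reaches up to 100 bp on either side of the summit but stops at any annotated exon, and reads 5′ to 3′ on the strand of the member gene (dm6 genome, NCBI RefSeq). Capitals mark CACTG, read on either strand as CACTG or CAGTG, and TATCGATA, the core of the DNA replication-related element (DRE) of housekeeping promoters. CACTG was found within 100 bp of 45.3% of all promoter summits of this protein. It is a common sequence, and also occurred in 46.1% of all protein-coding promoters, searched over 300 bp at the outermost start.

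eIF4EHP (chr3R:24109170-24109335, minus strand): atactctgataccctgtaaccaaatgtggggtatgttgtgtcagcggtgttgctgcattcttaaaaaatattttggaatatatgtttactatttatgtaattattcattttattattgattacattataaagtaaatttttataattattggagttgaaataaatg

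eEF1gamma (chr3R:29220063-29220171, plus strand): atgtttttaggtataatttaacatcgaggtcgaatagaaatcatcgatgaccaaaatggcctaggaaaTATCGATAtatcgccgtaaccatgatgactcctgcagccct

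GluProRS (chr3R:23958527-23958650, minus strand): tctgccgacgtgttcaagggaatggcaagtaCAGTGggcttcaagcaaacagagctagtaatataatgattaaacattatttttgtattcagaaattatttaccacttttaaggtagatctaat

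eIF1 (chr3L:3222961-3223105, plus strand): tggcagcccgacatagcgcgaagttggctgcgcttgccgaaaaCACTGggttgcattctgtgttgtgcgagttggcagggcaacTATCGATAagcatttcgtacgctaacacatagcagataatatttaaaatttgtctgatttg

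ThrRS (chr2L:12103504-12103704, plus strand): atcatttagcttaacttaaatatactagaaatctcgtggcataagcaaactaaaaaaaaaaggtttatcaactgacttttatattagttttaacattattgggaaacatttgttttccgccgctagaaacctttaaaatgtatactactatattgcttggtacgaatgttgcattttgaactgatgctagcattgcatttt

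IleRS (chr3L:22288423-22288623, plus strand): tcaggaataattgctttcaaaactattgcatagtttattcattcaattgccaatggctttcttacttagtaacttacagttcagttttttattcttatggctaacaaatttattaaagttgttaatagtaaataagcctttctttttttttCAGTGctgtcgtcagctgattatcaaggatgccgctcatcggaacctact

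The eIF1 stretch holds CACTG with its middle base 1 bp from the summit, which is base 45 of the stretch, and a DRE core as well. The eEF1gamma stretch holds a DRE core and no CACTG. The GluProRS and IleRS stretches each hold a single CAGTG, while those of eIF4EHP and ThrRS hold neither sequence. Neither sequence was therefore shared by all 6.

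CG30431-GFP lay at the promoters of some translation factor genes and some synthetase genes without -m in the symbol. It lay at no promoter of a synthetase gene with -m. A reproducible summit within 500 bp of an annotated start, here a promoter peak, was present at 15 of the 85 members (17.6%). The share over all protein-coding genes was 12.8% (1784 of 13968). Among the elongation factors 4 of 8 had such a peak (50%), among the cytosolic synthetases 5 of 18 (27.8%), among the initiation factors 6 of 44 (13.6%) and among the mitochondrial synthetases 0 of 15. The share of the initiation factors was close to that of all coding genes. Where the share over all coding genes is 12.8%, absence at 15 mitochondrial synthetases shows little. The classes hold few genes, and members are not replicates, so no test was made between them.

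**Figure D1:**
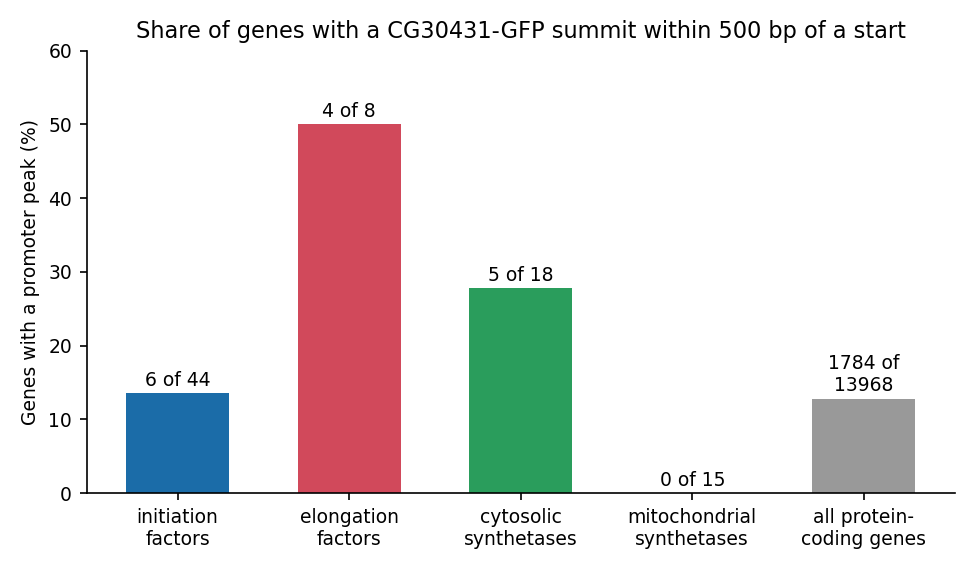
Share of genes (%) with a promoter peak of CG30431-GFP (reproducible summit at most 500 bp from a start), by class, with all protein-coding genes in grey; numbers above the bars are genes with a peak of genes in the class. Elongation factors stand at 4 of 8 and mitochondrial synthetases at 0 of 15.

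The number of annotated starts moved with these shares. Of the 56 members with a single start, 5 had a promoter peak (8.93%), and of the 29 with more, 10 did (34.5%). Over all protein-coding genes the corresponding shares were 9.32% and 22.4%. With only the outermost start of each gene searched, 8 of the 29 still had a peak (27.6%), against 15.6% of all protein-coding genes with several starts. A single start was annotated for 13 of the 15 mitochondrial synthetases, 11 of the 18 cytosolic ones, 29 of the 44 initiation factors and 3 of the 8 elongation factors. All 4 elongation factors with a peak were among the 5 with several starts. The part of the number of starts in the difference between classes was not tested.

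Counting summits inside gene bodies as well left the number at 15 of 85 (17.6%), against 17.2% of all protein-coding genes. The median gene length was 2522 bp for the members and 2164.5 bp for all protein-coding genes. Only eIF4EHP and eIF5B carried peaks in the gene body beyond the promoter window, and they are the longest members, at 45884 and 32320 bp.

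The peaks themselves were mostly stronger than a typical promoter peak of the list. The signal value is the authors' own, on a scale they do not state. Its pooled median was 222 over the 15 member peaks and 137 over all 1466 promoter summits. Of the 15, 12 lay above the latter median, and 6 lay among the 366 strongest promoter summits. All but the peak of AsnRS were among the 3314 strongest entries of each replicate, 3314 being the size of the reproducible set. The value was higher in replicate 1 for 13 member peaks, with a median ratio of replicate 1 to replicate 2 of 1.39, against 1.34 over the 3267 reproducible peaks with a value in both.

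**Figure D2:**
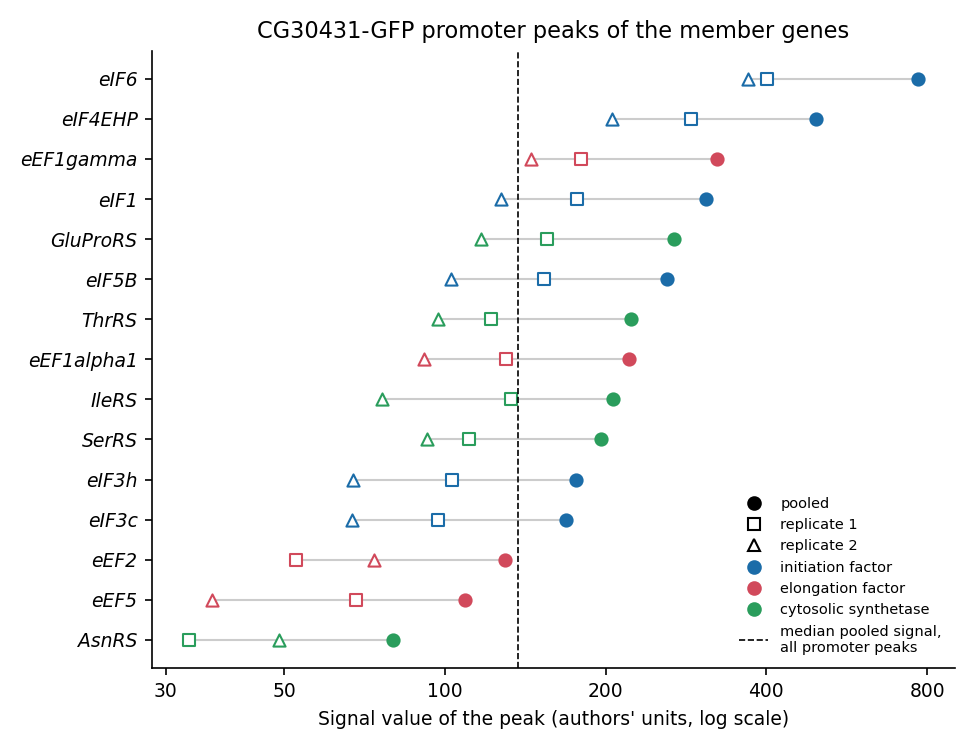
Signal values of the 15 member promoter peaks (log scale, authors' units) in the pooled list (filled circles), replicate 1 (squares) and replicate 2 (triangles), coloured by class; the dashed line is the median pooled value of all promoter peaks, 137. The peak of eIF6 stands highest at 770, and those of eEF2, eEF5 and AsnRS lie left of the line.

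Among the initiation factors the strongest peak lay at eIF6, which binds the large ribosomal subunit and keeps it from joining the small one too early. Signal values of 770 (pooled), 402 (replicate 1) and 369 (replicate 2) were listed there, with ranks of 32, 41 and 26 in the 3 lists. The peak (chr2R:23850265-23850538) had its summit 98 bp upstream of the eIF6 start. A start of the antisense RNA gene asRNA:CR45928 on the other strand was nearer, at 69 bp.

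The next was at eIF4EHP, a cap-binding protein that blocks translation of particular mRNAs because it does not recruit the scaffold eIF4G. Its promoter peak (chr3R:24109148-24109384) had values of 496 pooled, 289 in replicate 1 and 206 in replicate 2. The summit was 310 bp upstream of its start but only 66 bp from that of CG18428 on the other strand. A second peak (chr3R:24098974-24099337) lay in an intron 9804 bp downstream, with 165 pooled, 115 in replicate 1 and 43.0 in replicate 2. No start of another gene lay within 1000 bp of that summit.

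At eIF1, which helps select the start codon, the peak (chr3L:3222902-3223101) had values of 308, 177 and 127 in the pooled, replicate 1 and replicate 2 lists. Its summit was 336 bp upstream of eIF1 and 45 bp from the start of RpL28, a ribosomal protein gene on the other strand. This site therefore also counts for a cytosolic ribosomal protein gene. 

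At eIF5B, the GTPase that joins the subunits, the promoter peak (chr3L:3460693-3460841) had values of 260, 153 and 103. The summit lay in the leader of the longer transcript, 231 bp downstream of the outer start and 143 bp upstream of the inner one. It has 2 more peaks, both in introns. The one 27742 bp downstream of the inner start (chr3L:3432679-3433042) had 178 pooled, 108 in replicate 1 and 71.3 in replicate 2. The one 10779 bp downstream (chr3L:3449642-3450005) had 85.8, 65.4 and 19.4, and in replicate 2 it ranked only 8225th.

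Of the 16 genes for eIF3, the large complex that scaffolds initiation on the small subunit, eIF3c and eIF3h had a peak. That of eIF3c (chr2R:17665477-17665840) had values of 169, 97.3 and 67.0, and its summit lay 19 bp upstream of the start. That of eIF3h (chr2L:5052395-5052545) had 176, 103 and 67.3. Its summit was in an intron 293 bp downstream of the nearest start, and the start of senju on the other strand lay 356 bp from it. Values of these 2 peaks were close in every list, although their places differed.

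Apart from eIF1, eIF5B and eIF6, the initiation factors outside eIF3 and the eIF4E family had no promoter peak. These were the 3 subunits of eIF2, which carries the initiator tRNA, and the 5 of its exchange factor eIF2B. They were also the helicase eIF4A, its partners eIF4B, eIF4H1 and eIF4H2, both eIF4G scaffolds, eIF2A, eIF2D, eIF1A and eIF5. Of the 7 cap-binding proteins of the eIF4E family, eIF4EHP alone had a peak. The start of eIF2Bbeta on X lay 681 bp from the strongest peak of the whole set (chrX:2703705-2704063, pooled signal 1800), whose summit was 38 bp from the start of Ugalt. It was outside the 500 bp window and was not counted.

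The elongation factors with a peak included the main factors of both steps of the cycle. The peak of eEF1gamma, a structural subunit of the exchange factor of eEF1alpha, had values of 323 pooled, 180 in replicate 1 and 145 in replicate 2 (chr3R:29220039-29220257). Its summit lay 9 bp upstream of the start. At eEF1alpha1, which delivers charged tRNA to the ribosome, the values were 222, 130 and 91.3 (chr2R:11891968-11892139). This summit was in an intron, 892 bp inside the gene and 95 bp upstream of the nearest of 4 annotated starts.

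At eEF2, which moves the ribosome to the next codon, the values were 129, 52.7 and 73.7, and the summit lay 4 bp downstream of the start (chr2L:21681978-21682341). It is 1 of 2 member peaks with a higher value in replicate 2. At eEF5, known as eIF5A in other species and needed where peptide bonds form slowly, they were 109, 68.2 and 36.7, with the summit 25 bp upstream (chr2R:24057591-24057954). All 4 summits lay within 100 bp of a start of the member, and no other coding gene on the opposite strand had a start within 500 bp. The genes eEF1alpha2, eEF1beta, eEF1delta and the selenocysteine factor eEFSec had no promoter peak.

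Every peak at a cytosolic synthetase lay beside a start on the opposite strand. The strongest was at GluProRS, whose product charges both glutamate and proline tRNAs, with 269 pooled, 155 in replicate 1 and 117 in replicate 2 (chr3R:23958517-23958657). Its summit was 236 bp upstream of GluProRS and 24 bp from the start of AP-1sigma, an adaptor subunit of vesicle coats. At ThrRS, for threonine, the values were 223, 122 and 97.0, with the summit 147 bp upstream and Patsas at 319 bp (chr2L:12103422-12103785).

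At IleRS, for isoleucine, they were 207, 133 and 76.4, with the summit 142 bp upstream and Hem, a regulator of actin, at 328 bp (chr3L:22288341-22288704). At SerRS, for serine, they were 196, 111 and 92.7 (chr2L:3037201-3037564). There the summit lay 20 bp downstream of the SerRS start and 28 bp from that of CG17260. These 4 peaks ranked between 399 and 922 in each of the replicates.

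AsnRS, for asparagine, had the weakest member peak, with 80.0 pooled, 33.1 in replicate 1 and 49.0 in replicate 2 (chr2L:19131813-19132176). Its summit was 41 bp upstream of AsnRS and 328 bp from the start of DCTN6-p27, a dynactin subunit. It ranked 2869th in the pooled list and 4656th in replicate 1, near the lower end of the reproducible set. The lowest value in that set was 70.8.

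**Figure D3:**
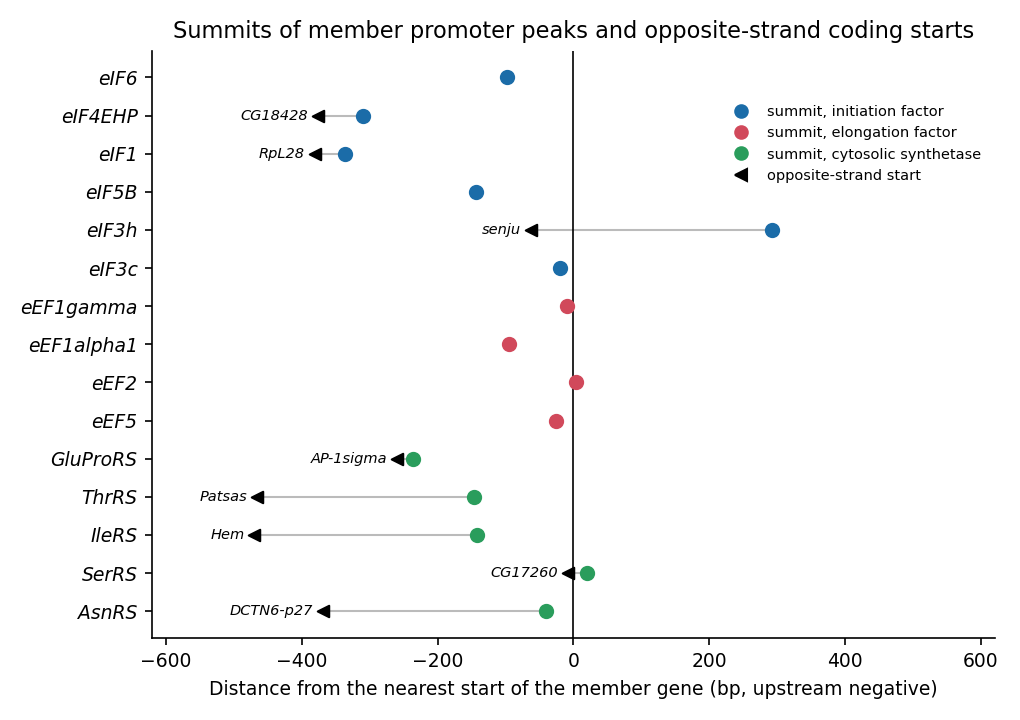
Position of each member promoter summit (coloured circles) relative to the nearest start of the member (0, bp, upstream negative), with the nearest opposite-strand coding start within 500 bp of the summit (black triangles, named). The 4 elongation factor summits lie within 100 bp of the start with no such neighbour, and all 5 cytosolic synthetases have one.

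Taking the 15 peaks as a whole, 12 summits were upstream of the nearest start of the member and 3 downstream, with a median position of -95 bp. Over all protein-coding genes with a promoter peak, 89% of the summits were upstream. The member's own start was the nearest of all genes for 11. For the other 4, eIF6, eIF4EHP, eIF1 and GluProRS, a neighbour was nearer, and these are 4 of the 5 strongest member peaks. Among all 1784 protein-coding genes with a promoter peak, the gene's own start was the nearest for 69.8%. An opposite-strand coding start lay within 500 bp of 8 of the 15 summits. Counted the same way, per gene, 56.2% of all protein-coding genes with a promoter peak had such a start (1003 of 1784), so the members were close to that share. Shared promoters were common among the members with or without a peak. An opposite-strand coding start lay within 1000 bp upstream of 11 of 15 members with a promoter peak (73.3%) and 37 of 70 without (52.9%). By class, such a start lay upstream of 16 of the 18 cytosolic synthetases and 5 of the 8 elongation factors. The same held for 7 of the 15 mitochondrial synthetases and 20 of the 44 initiation factors, against 35.2% of all protein-coding genes. A peak in a shared promoter cannot be assigned to either gene from these data.

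Weaker entries were no more frequent at the remaining members than elsewhere. The pooled list and the replicate lists each hold 30000 entries, background included, so an entry there is no sign of binding by itself. Of the 70 members without a promoter peak, 17 (24.3%) had a pooled entry within 500 bp of a start, against 26.6% of all protein-coding genes without a promoter peak. A further 13 had an entry in a replicate list only, and 40 (57.1%) had none in any list, against 56.6% of all such genes. With gene bodies included, 29 of the 70 had a pooled entry (41.4%), against 44.5% of the protein-coding genes without a reproducible summit in either place.

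The entry nearest to the reproducible set was at eIF3m, a subunit of eIF3, with 64.2 pooled, 26.7 in replicate 1 and 37.8 in replicate 2, and a summit 8 bp downstream of the start. It ranked 3744th in the pooled list and 6762nd in replicate 1, and was not in the reproducible set of 3314. AsnRS, which was in the set, ranked 2869th and 4656th in the same lists. The next were SerRS-m with 51.5, AlaRS with 49.4, PheRS-m with 41.4 and eIF4G2 with 39.6. In replicate 2 no entry held the pooled summit of PheRS-m, and that of eIF4G2 had a value of 12.4.

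**Figure D4:**
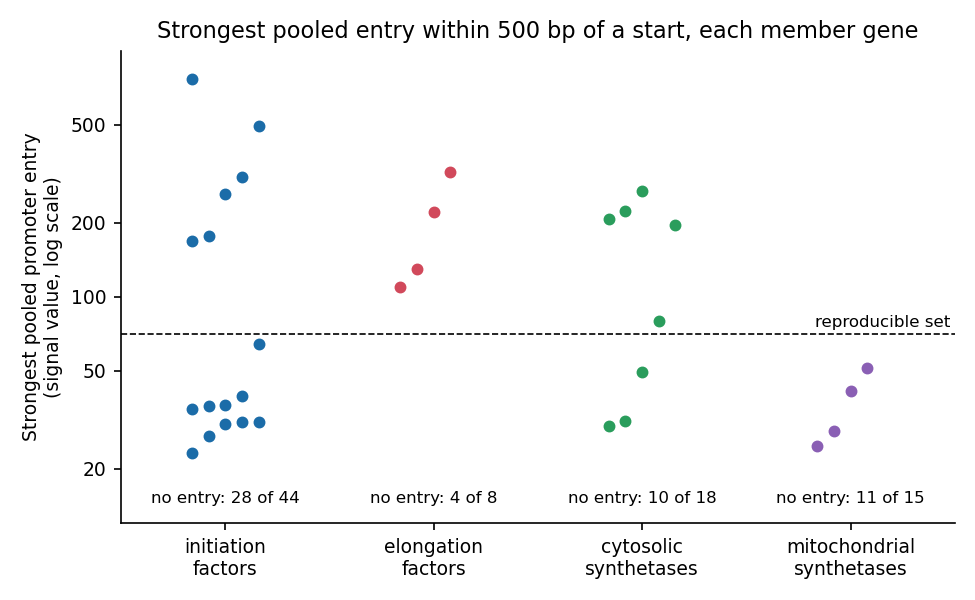
Strongest pooled entry within 500 bp of a start of each member gene (signal value, log scale), by class, with the number of genes without any entry below; the dashed line is the lowest value of the reproducible set, 70.8. The 4 mitochondrial synthetases with an entry all lie below the line.

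The mitochondrial synthetases were without reproducible peaks in gene bodies too. Their strongest pooled promoter entries were those of SerRS-m and PheRS-m, followed by TyrRS-m with 28.4 and ArgRS-m with 24.8. The other 11 had no pooled entry within 500 bp of a start, and 9 of them had none in any list, AlaRS-m, AsnRS-m, AspRS-m, GluRS-m, IleRS-m, LeuRS-m, MetRS-m, ProRS-m and TrpRS-m. Counting gene bodies as well, 10 of the 15 had a pooled entry (66.7%). This was above the 44.5% of protein-coding genes without a reproducible summit and the 46.2% of such cytosolic synthetases (6 of 13). Within 500 bp of a start alone the share was 26.7%, against 26.6% of protein-coding genes without a promoter peak. The strongest entry in each gene body that held one had a value of 23.2 to 33.5 and a rank between 11212 and 27521. The median gene length was 2727 bp, against 3090 bp for the cytosolic synthetases and 2164.5 bp for all protein-coding genes. The nearest reproducible summit lay a median of 7799 bp from a start, against 6646.5 bp for the cytosolic synthetases and 11276 bp for all protein-coding genes. The smallest distance was 823 bp, at LeuRS-m, to a summit nearer to Dhc64C.

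Among the other classes the members with no promoter entry in any list were as follows. The cytosolic synthetases were ArgRS, CysRS, GlnRS, HisRS, LeuRS, LysRS, TrpRS and TyrRS, and the elongation factors were eEF1delta and eEFSec. The 21 initiation factors were eIF2alpha, eIF2Balpha, eIF2Bgamma, eIF2Bdelta, eIF3d1, eIF3e, eIF3f1, eIF3f2, eIF3g1, eIF3g2, eIF3i, eIF3j, eIF3l, eIF4E3, eIF4E4, eIF4E5, eIF4E6, eIF4G1, eIF4H1, eIF4H2 and eIF5. They include the core factors eIF2alpha and eIF5 and the additional gene copies eIF3f2, eIF3g2 and eIF4E3 to eIF4E6. How reads were placed between similar copies was not examined here.

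CACTG occurred at some member summits, at shares near those of all promoter summits. On either strand, it lay within 100 bp of 5 of the 15 summits (33.3%), against 45.3% of all 1466 promoter summits. Within 50 bp it lay at 4 of 15 (26.7%), against 21.6%. The summit of eEF1alpha1 lay on the middle base of such a match, and at eIF1, GluProRS and eEF5 the nearest match was centred 1, 10 and 26 bp away. Of the longer forms CACTGTGC, CACAGTGG, CACTGAGA and TACACTGA, only CACTGTGC was present, at eEF5. Those matches overlap the CACTG match they contain. 

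The DRE core TATCGATA lay within 100 bp of 3 of the 15 summits, those of eIF6, eEF1gamma and eIF1 (20%), against 4.23% of all promoter summits. It was present in the promoters of members with and without a peak. In the 300 bp from 250 bp before to 50 bp after the outermost start it occurred in 4 of 15 members with a promoter peak and 15 of 70 without (21.4%). The share was 11.9% over all protein-coding genes with a promoter peak and 9.36% over all protein-coding genes. CACTG occurred in the same stretch in 6 of 15 members with a peak and 40 of 70 without (57.1%). The share was 55% over all protein-coding genes with a promoter peak and 46.1% over all protein-coding genes. The mitochondrial synthetases, which had no peak, held it in 11 of 15 promoters.

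Other promoter and insulator sequences were searched on both strands. The E-box CANNTG lay at 11 of the 15 summits (73.3%), against 59% of all promoter summits, and overlaps no CACTG match by its letters. In the 300 bp at the outermost start it occurred in 80% of members with a promoter peak and 80% of those without. The share over all protein-coding genes was 77.2%. The Motif 1 core GGTCACACT, the Motif 7 core CATCNCTA and the CTCF core AGNTGGCGC were found at none. Of all promoter summits 2.32%, 6.41% and 1.84% hold them, so absence at 15 summits shows little. In the 300 bp at the outermost start the Motif 7 core occurred in 2 of 15 members with a promoter peak (13.3%). The share was 13.2% over all protein-coding genes with a promoter peak. The Motif 1 and CTCF cores occurred in none of these 15. The letters of the Motif 7 and CTCF cores were set after the searches were planned. The median GC content of the windows of 100 bp on either side was 38.8% at the member summits and 35.3% at all promoter summits.

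Other genes of translation, outside the symbol rule, were counted against the same 12.8% of all protein-coding genes. Of 7 genes for termination, rescue and recycling, 4 had a promoter peak. These lists are short, and no test was made between them. The 4 were eRF3, the release factor GTPase (126 pooled, 64.9 in replicate 1 and 53.9 in replicate 2), the rescue factors HBS1 (95.8, 42.4 and 52.6) and pelo (91.4, 51.8 and 43.7), and pix, which splits the ribosome for recycling (82.0, 33.6 and 42.1). Their summits lay between 24 and 109 bp upstream of the start, and in each case the gene's own start was the nearest. All 4 values lie below the median of promoter summits, and eRF1, the factor that reads stop codons, had no peak.

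Of 12 mitochondrial translation factors 1 had a promoter peak, GatA, a subunit of the amidotransferase that completes glutaminyl-tRNA (147 pooled, 73.7 in replicate 1 and 76.3 in replicate 2). The start of P5cr was nearer to that summit, at 46 bp. None of the 3 synthetase complex genes AIMP1, AIMP2 and AIMP3 had a promoter peak, nor did alpha-PheRS and beta-PheRS, the cytosolic phenylalanine synthetase genes that the symbol rule misses. Of 9 genes for control of initiation, 2 did. They were mxt, a binding partner of eIF4E (84.2, 61.9 and 22.5), and the poly(A)-binding protein gene pAbp (208, 128 and 70.9), the latter with its summit 492 bp from the start. With gene bodies included, 4 of the 9 had a reproducible summit, against 17.2% of all protein-coding genes.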

How the data were processed

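The members and lists were chosen with earlier results of these data known. ChIP-seq was done on 2 biological replicates of CG30431-GFP embryos. Per the deposited readme, peaks were listed for each replicate against a control alignment and for the pooled replicates. The irreproducible discovery rate was then applied to give the reproducible list. For the aligner, the peak caller and the threshold, names and settings were not given in the sources used here. The deposited signal value of each peak is the authors' own and served only to describe and rank peaks within a list. Depth is unknown, so no interval is given. The dm3 lists were not used.

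Gene models were Ensembl release 115 (BDGP 6.54, dm6 coordinates), without transposable elements. A summit counted for every gene with a start within 500 bp. For each peak, the replicate's value came from its strongest entry that spans the summit. All members with a reproducible peak are named, as are the 5 others with the strongest pooled promoter entry and those with no entry. Of 35 related names 2 were not matched in the annotation. The series has a single group, so no test was made, and all comparisons are counts and values. The search was checked on placed summits. Python 3.11.15 and matplotlib 3.10.9 were used.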

Additional observations from a re-analysis of the deposited data

How the results depend on the processing

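Of the 15 members with a promoter peak, 7 kept it under 8 alternatives: IleRS, SerRS, ThrRS, eEF1gamma, eEF2, eIF3c and eIF5B. With a window of 200 bp the initiation factors with a peak fell from 6 to 3, and likewise to 3 when a summit counted only for the nearest start. With 1000 bp the mitochondrial synthetases rose from 0 to 1, LeuRS-m. To leave out a replicate, the 3314 strongest entries of the other replicate were used in place of the reproducible set. Without replicate 1 the count of members was 16, with eIF3m added, and without replicate 2 it was 15, with AspRS in place of AsnRS. In the stronger 1657 peaks it was 13 (15.3%, against 7.64% of coding genes), without eEF5 and AsnRS. With the nearest start only it was 11 (12.9% against 9.13%), and with 200 bp also 11 (12.9% against 8.25%). The median signal of 222 was 92.7 in replicate 2 alone and 130 in replicate 1 alone, each list having its own scale. The 17 members with only a weaker pooled entry became 11 with 200 bp and 7 in the strongest 10000 entries. Of 58 alternative values, 51 moved by less than 1.5 times or less than the spread between replicates. The outermost start (13 members) and coding starts only (12 own starts nearest) were chosen after the data were seen. Unknown depth limits what the absence of a peak shows.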

Other observations

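At AspRS, the cytosolic aspartate synthetase gene, replicate 1 alone listed a strong entry. It lay at chr2R:12879950-12880309, 154 bp upstream of an inner start, with a signal value of 70.4 and rank 1629. No entry of the pooled list and none of replicate 2 overlapped it, and a start of Nmda1 was nearer, at 100 bp. Among the 3314 strongest entries 43 of replicate 1 and 34 of replicate 2 were without an overlapping pooled entry. The cause was not tested.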
